A study of Mus musculus with 4 samples.

Results

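Cytosolic ribosomal proteins are the protein components of the ribosomes that translate nuclear-encoded mRNA. On a whole-genome mouse expression array, all non-control probes were taken whose gene name is that of a protein of the large subunit (Rpl) or the small subunit (Rps), together with Rplp0, Rplp1, Rplp2, Rpsa and Fau, and without the Rps6k kinases and pseudogene names. This rule gave 184 of 56605 probes, which measure 85 of 24813 reference genes, 51 of the large and 34 of the small subunit. Membership rests on names, but the family itself was selected on its measured levels in GC-2 against GC-1. Its differences between the lines are therefore a description and support nothing by themselves.

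The samples were 2 arrays of GC-2 cells and 2 arrays of GC-1 cells, 1-colour Cy3 arrays that all lay on 1 slide. GC-2 is a mouse line made from spermatocytes by introducing SV40 large T antigen together with a p53 that is temperature-sensitive. GC-1 is a mouse line made from type B spermatogonia with large T antigen, which GC-2 thus shares, and both were grown at 37 °C with 10% foetal bovine serum and harvested at 90% confluency. Each line is 1 transformed culture line, and the labels do not say whether its arrays came from separate cultures, so the p-values measure only a spread between arrays that may be technical. Each line filled a row of the slide, so that position and line cannot be told apart.

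A ribosome needs its proteins in equal numbers, with the stalk proteins as the exception, and their mRNAs are among the most abundant in growing cells. In mammals the transcription start of these genes lies within a run of pyrimidines, and the mRNA therefore begins with the terminal oligopyrimidine sequence through which mTOR and Larp1 control its translation. Several members have paralogs with expression restricted to some tissues, of which Rpl10l and Rpl39l are known from the male germ line of the mouse.

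Probe and promoter sequences are shown for the genes on which the differences turn. The Rps26 probe (chr10:128062300-128062359, mm9, minus strand) lies on the gene with the largest difference among the brightly measured members. For Rpl39, the first sequence is the probe nearest to the transcript's start (chrX:34624052-34625147, mm9, across an intron), and the other pair is given because its probes hold a stretch, in capitals, that matches except for 1 extra base in the longer one (36 bases against 35). Their longest identical run is 21 bases, and they gave different signals. The scanner files place only 14 bases of the second Rpl39 probe (chrX:34622515-34622528) and an intron-spanning match of the last (chrX:34622696-34623990).
Rps26 probe: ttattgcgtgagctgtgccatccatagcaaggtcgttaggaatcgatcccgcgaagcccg
Rpl39 probe, first: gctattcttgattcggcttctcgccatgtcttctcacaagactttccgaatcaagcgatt
Rpl39 probe, second: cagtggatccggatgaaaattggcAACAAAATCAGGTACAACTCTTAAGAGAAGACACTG
Rpl39 probe, overlapping the second: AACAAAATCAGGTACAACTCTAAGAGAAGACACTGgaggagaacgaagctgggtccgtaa

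Promoters from RefSeq (GRCm38.p6) were available for 64 of the 85 genes. Of these 64 genes, 31 (48.4%) held at least 8 C or T in a row, on the gene's own strand, within 20 bases before or 20 bases after an annotated start, against 18.3% of 17492 protein-coding genes. The letters CCGGAAG, searched on both strands of the whole window, stood in 26 of them (40.6%), against 12.9% of protein-coding genes. The windows below run from 40 bases before to 20 bases after the start, with the pyrimidine run in capitals, and show it in 3 genes higher in GC-2 (Rps26, Rpl35a and Rpl34) and in Fau, one of the brightest members.
Rps26 (chr10:128626487-128626546, minus strand): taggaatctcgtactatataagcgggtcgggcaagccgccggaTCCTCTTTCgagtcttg
Rpl35a (chr16:33056442-33056501, plus strand): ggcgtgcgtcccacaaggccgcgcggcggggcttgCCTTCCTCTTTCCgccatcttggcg
Rpl34 (chr3:130730318-130730377, minus strand): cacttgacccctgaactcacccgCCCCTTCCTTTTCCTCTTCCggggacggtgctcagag
Fau (chr19:6057907-6057966, plus strand): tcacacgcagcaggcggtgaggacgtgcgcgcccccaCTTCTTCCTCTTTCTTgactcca
The genes with and without a run had similar medians, and the difference between them was not tested. The median difference was 0.62 log2 over the 31 tested genes with a run and 0.52 log2 over the 31 tested genes without one, and Rpl10, Rpl36a and Rps28, which were higher in GC-2, held none in their windows.

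A level is given here as log2 of the scanner's processed signal minus the array's 75th percentile, and a difference as GC-2 minus GC-1 on that scale. To be tested, a probe had to be well above background in both replicates of GC-2 or of GC-1, and each gene is represented by the brightest such probe. Of the 184 probes 181 could be tested, which cover 83 genes, and 176 probes were well above background on all 4 arrays. The family sat at the top of the signal range. Among 17437 tested genes, 79 of its 83 tested genes lay above the 90th percentile of mean level and 35 were among the 100 brightest. The exceptions were Rpl7l1, Rpl37, Rps4l and Rpl3l, at percentiles 62.3, 40.5, 29.7 and 0.958. No spot was saturated, and the highest signal, of Rps10 on a GC-1 array, was 247840.

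The depth of signal differed between the arrays. The 75th percentile of unscaled signal was 416 and 199.9 for GC-2, against 666 and 693 for GC-1, and 57.5% to 64.9% of probes were well above background. The summed unscaled signal of the family was 7826090 and 4865560 in GC-2, against 9665290 and 9402340 in GC-1. Unscaled, the family was thus dimmer in both GC-2 arrays, and every difference below is relative to the 75th percentile. On that scale 8 E1A spike-in probes (which measure control RNA added for the labelling), all well above background, were higher in GC-2 by 2.07 ± 0.46 log2 (SD over probes). In bulk RNA, fewer cells that express a gene and less of its RNA per cell cannot be told apart.

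The germ cell label was checked against 16 germ cell markers. Dazl, Kit, Dmc1, Mael and Piwil1 were well above background on no array. Prm1, Tnp1, Zbtb16, Gfra1, Uchl1 and Sall4 were well above background on all 4 arrays. Ddx4 and Acr reached that level on 2 arrays of GC-1 and 1 of GC-2. Stra8 and Sycp1 did so on 1 GC-1 array each and on no GC-2 array, and Sycp3 on 1 GC-2 array alone. Of the 16 markers 8 could be tested, 2 higher (Gfra1 and Sall4) and 1 lower (Uchl1) in GC-2. Markers of other testis cells differed between the lines in both directions. The summed signals given here are unscaled and follow the brightest genes of a list. For 9 tested Sertoli cell markers they were 30257 and 8578 in GC-2 against 427165 and 406466 in GC-1. Of these markers 2 were higher (Gata4 and Rhox5) and 5 lower, with Amh on no array. Summed signals were 5230 and 2923 in GC-2 against 253 and 289 in GC-1 for 4 Leydig cell markers (3 higher, 1 lower), with Hsd3b1 and Lhcgr on no array. Fshr (Sertoli) and Cyp11a1 (Leydig), both counted as lower, were well above background on no GC-2 array. Their mean GC-1 levels of -5.51 and -5.97 log2 stood near the lowest measurable signals of the GC-2 arrays (-5.58 and -4.69 log2). No fold can thus be given for them. For 6 peritubular myoid markers (3 higher) the summed signals were 17983 and 8283 in GC-2 against 7369 and 7234 in GC-1. For 4 epithelial markers, all lower in GC-2, they were 349 and 169 in GC-2 against 233709 and 320330 in GC-1, with Krt8 and Dsp on no GC-2 array. Krt18 stands in both this list and that of the Sertoli cell markers. Of the untested epithelial markers, Cdh1 was on 1 GC-2 array alone and Epcam on 1 GC-1 array alone. The part of these marker differences in the ribosomal protein values was not tested.

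Relative to the 75th percentile, most ribosomal protein genes had higher levels in GC-2 than in GC-1, by moderate amounts. Scaled to the spike-in probes, however, 80 of 83 fell past the limma test (96.4%, against 87.1% of all tested genes). The family's median level was 7.73 and 8.03 log2 on the GC-2 arrays and 7.44 and 7.37 log2 on the GC-1 arrays, and the median difference was 0.61 log2, against -0.13 log2 over all 17437 tested genes. The difference was positive in 75 genes and negative in 8. In 67 of the 83 genes both GC-2 arrays lay above both GC-1 arrays (34.6% of all tested genes did so), and in 3 genes both lay below (43.4% of all).

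By the limma test with adjustment over all genes, 18 of the 83 genes (21.7%) rose in GC-2, against 18.1% of all tested genes, and 1, Rpl3l, fell, against 25.5% of all. Against all genes, the share that rose was higher or lower depending on the setting: 35.4% against 20.2% of all with genes above background on all 4 arrays and 34.9% against 22.7% with the mean of a gene's probes, but 9.64% against 18.6% with quantile normalization and 2.41% against 10.6% without GC-1 replicate 1. The share that fell was below that of all genes as reported, but with scaling to the spike-in probes it was 96.4% against 87.1% of all. By probe, 53 of 181 (29.3%) were higher and 3 (1.66%) lower, against 24.1% and 21.6% of all 36693 tested probes. Of those lower, the Rpl3l probe and a dim Rps15a probe were well above background in GC-1 alone. Those higher include an Rpl26 probe that was above background in GC-2 alone. Counting only probes above background on all 4 arrays, 1 probe and 0 member genes were lower, where 25.5% of all genes were. At an unadjusted p under 0.05, 37 genes passed in either direction (44.6%, against 52.7% of all tested genes). The median SD between the arrays of a line, over the members, was 0.24 log2 in GC-2 and 0.10 log2 in GC-1. Counts of called genes depended on single arrays. With any array left out, a line keeps 1 array, and fewer genes were called among the members and over the whole array. The share of members that rose then lay below that of all genes, while their median difference was 0.40 to 0.76 log2.

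**Figure D1:**
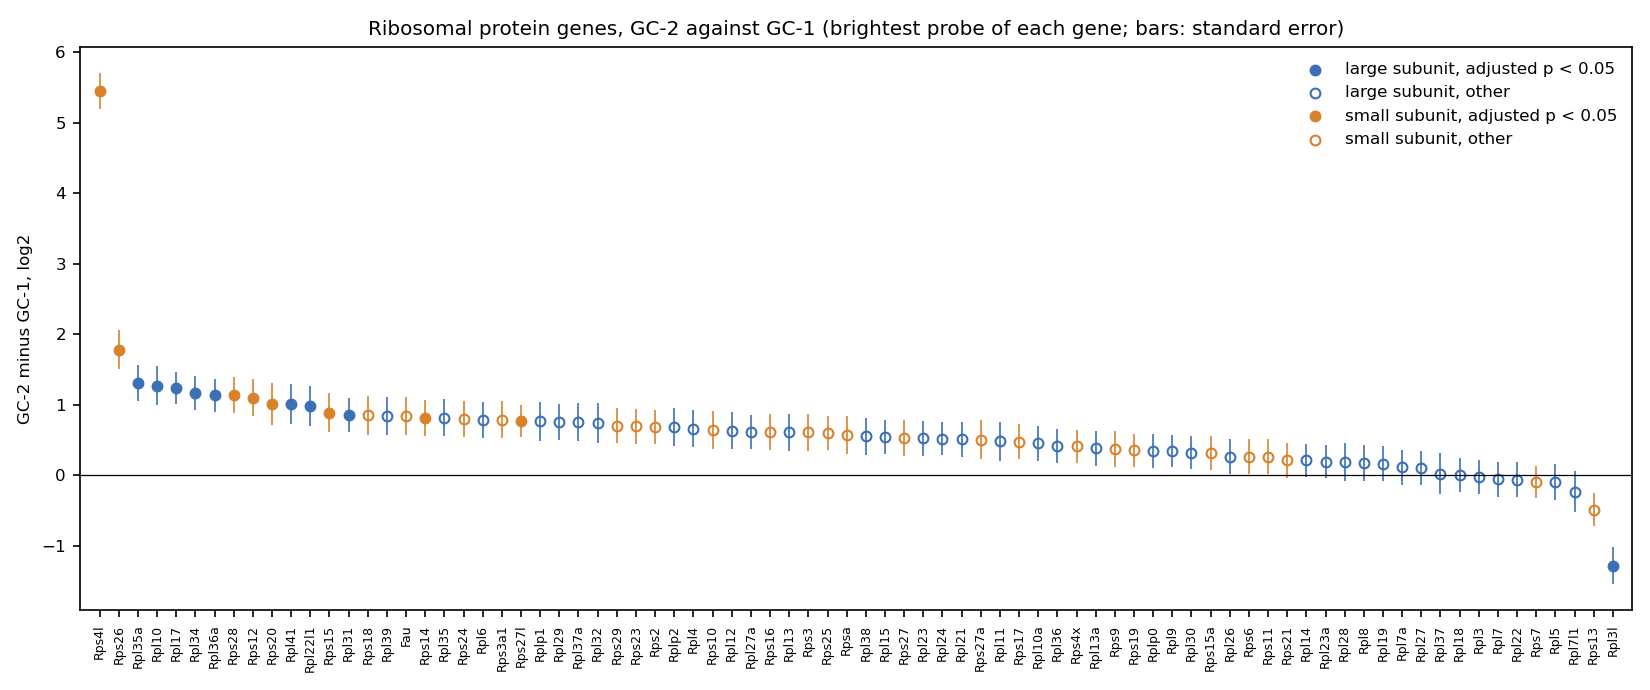
Difference between GC-2 and GC-1 (log2, vertical axis) for 80 of the 83 tested ribosomal protein genes, sorted along the horizontal axis, with bars of 1 standard error; filled points passed the limma test at an adjusted p under 0.05. On this scale (the 75th percentile) most points lie between 0 and 1, with Rps4l at 5.46 and Rpl3l at -1.28 at the ends. With spike-in scaling, 80 of the 83 tested genes passed the test as lower (96.4%, against 87.1% of all tested genes).

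The difference was set beside the level of a gene. At mean levels of 8 to 10 log2 the 26 members had a median difference of 0.72 and the 46 other genes 0.79 log2. At 7 to 8 log2 the median was 0.54 over 39 members and 0.21 over 179 other genes, and at 6 to 7 log2 it was 0.50 over 12 members and -0.17 over 393 other genes. Below that, where 6 members lay, the other genes had medians of -0.37 log2 at 4 to 6 (2074 genes), -0.25 log2 at 0 to 4 (6581 genes) and 0.07 log2 at -7 to 0 (8081 genes), so that their difference did not follow level over the whole range. The brightest members thus differed by about as much as other genes of their level, while those at 6 to 8 log2 lay above the other genes there. How far level accounts for the family's difference was not tested.

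**Figure D2:**
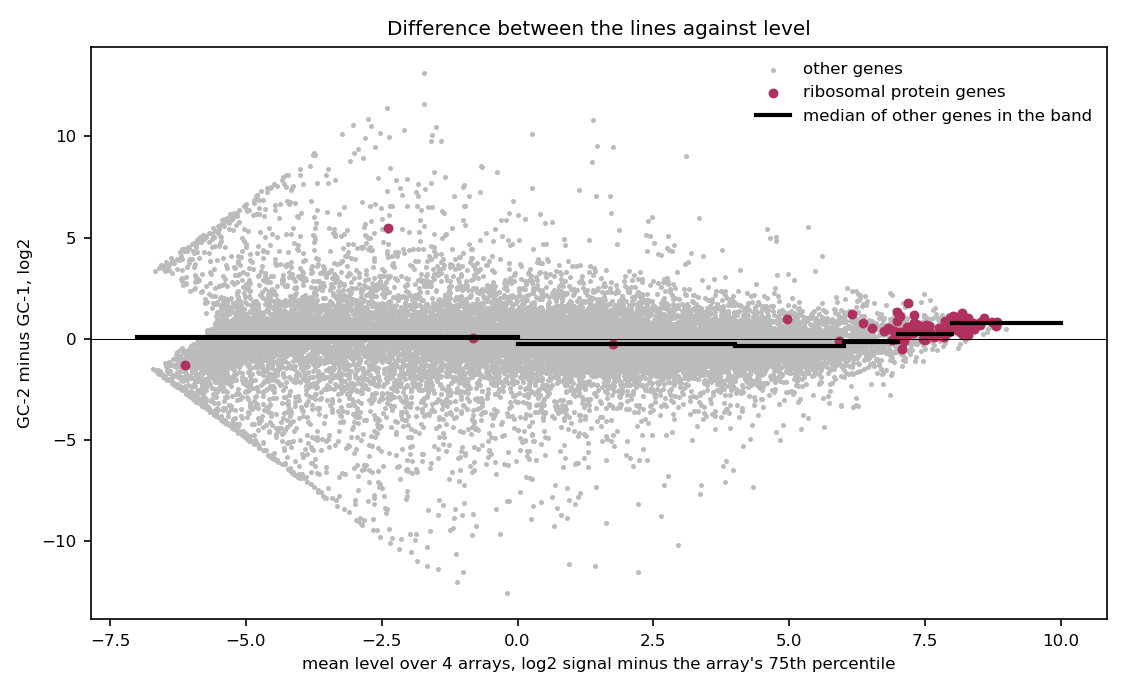
Difference between GC-2 and GC-1 (log2, vertical axis) against mean level over the 4 arrays (log2, horizontal axis) for all tested genes, with ribosomal protein genes in red, levels scaled to the 75th percentile, and the median of the other genes in each band of level as black lines. The medians of the other genes are 0.07, -0.25 and -0.37 in the bands from -7 to 6, and 0.79 in the band from 8 to 10, where 26 members lie.

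The family's difference depended on the scaling. The median over its members was 0.29 log2 when each array was scaled to its median and 0.11 log2 after quantile normalization. It was -1.46 log2 when arrays were scaled to the E1A spike-in probes, where 1 gene rose (1.2%, against 3.74% of all). Over all tested genes the medians under these scalings were -0.44, -0.12 and -2.19 log2. The gap between the members' median and that of all genes was 0.73 log2 as reported, 0.23 log2 with quantile normalization and 0.26 log2 with normexp background. Scaling to array medians or spike-in probes moves all genes of an array alike and leaves this gap as it is.

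**Figure D3:**
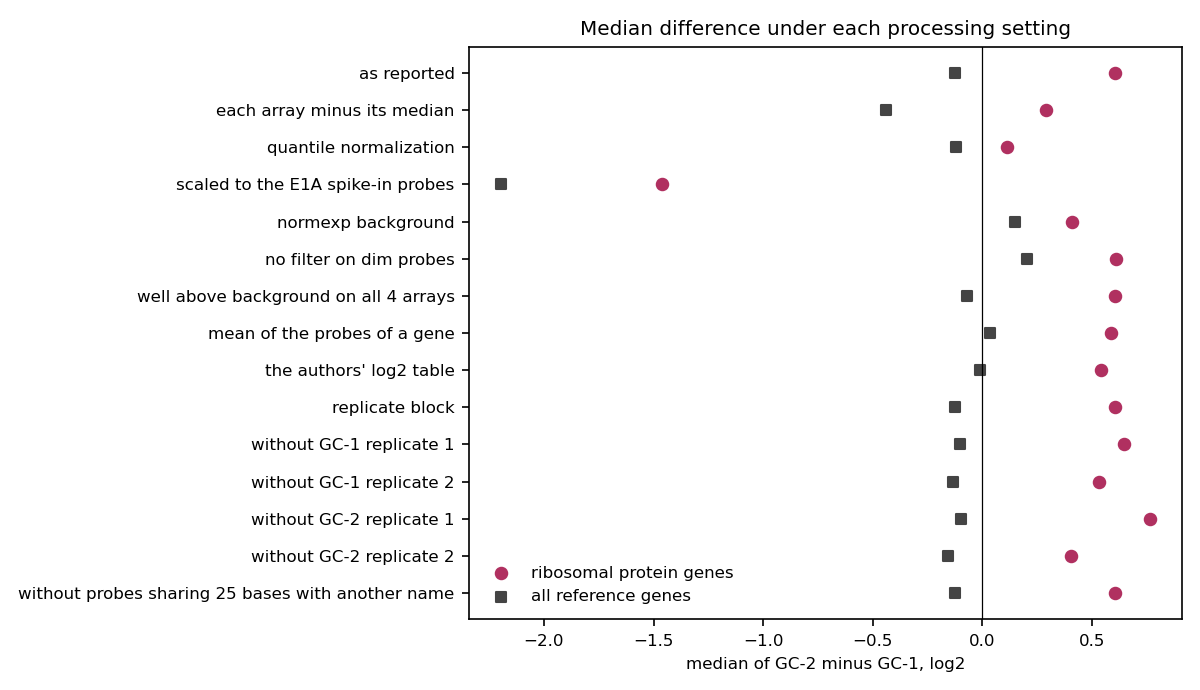
Median difference between GC-2 and GC-1 (log2, horizontal axis) over the ribosomal protein genes (red circles) and over all reference genes (grey squares) under each way of processing the data. The circles lie right of the squares in each row, and only scaling to the spike-in probes puts the members' median below 0, at -1.46.

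Of 49 tested large-subunit genes 9 (18.4%) rose and 1 fell, with a median difference of 0.52 log2, and of 34 small-subunit genes 9 (26.5%) rose and none fell, with a median of 0.66 log2, where 18.1% of all tested genes rose. The difference between the subunits was not tested.

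Among large-subunit proteins the highest differences past the test were those of Rpl35a, Rpl10, Rpl17 and Rpl34. Rpl35a, a gene mutated in Diamond-Blackfan anaemia in humans, had levels of 7.45 and 7.81 log2 in GC-2, against 6.42 and 6.23 log2 in GC-1. It rose by 1.31 ± 0.26 log2 (standard error, n = 2 arrays per line), which is 2.47-fold, with a limma adjusted p of 0.0115. The groups did not overlap, and both of its probes gave nearly one value, 1.28 and 1.31.

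Rpl10, an X-linked gene whose protein joins the large subunit late in its assembly, had levels of 8.58 and 9.04 log2 in GC-2, against 7.41 and 7.67 log2 in GC-1. It rose by 1.27 ± 0.28 log2 (limma adjusted p = 0.016). Rpl10 was high on both GC-2 arrays, with no overlap. Rpl17, a protein near the exit of the peptide tunnel, had 6.72 and 6.82 log2 in GC-2, against 5.49 and 5.56 log2 in GC-1. Its arrays agreed closely within each line, all 3 of its probes lay between 1.24 and 1.44, and it rose by 1.24 ± 0.23 log2 (limma adjusted p = 0.00923). Rpl34 had 7.76 and 8.01 log2 in GC-2, against 6.78 and 6.64 log2 in GC-1, and rose by 1.17 ± 0.24 log2 (limma adjusted p = 0.0134), again without overlap. Rpl36a, Rpl41, Rpl22l1 and Rpl31 also rose, by 0.85 to 1.14 log2.

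Of the small subunit, Rps26, whose protein lies at the mRNA exit channel and which is also a Diamond-Blackfan anaemia gene in humans, had levels of 7.90 and 8.27 log2 in GC-2, against 6.12 and 6.47 log2 in GC-1. It rose by 1.79 ± 0.27 log2, or 3.45-fold (limma adjusted p = 0.00507). Unscaled, its signal was 99590 and 61510 in GC-2 and 46466 and 61573 in GC-1, so that the lines overlapped before scaling. The single Rps26 probe printed above shares at least 25 bases in a row with a probe of another name, whose difference was 1.86 log2. Rps28, Rps12, Rps20, Rps15, Rps14 and Rps27l rose by 0.78 to 1.14 log2. Of the 20 genes on the list of human Diamond-Blackfan anaemia genes, 5 (25%) rose and none fell, with a median of 0.54 log2, against 18.1% and 25.5% of all tested genes.

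Rps18, Rps10, Fau and Rpl41 were among the brightest members. Rpl41, the smallest ribosomal protein, had 8.80 and 9.38 log2 in GC-2, against 8.13 and 8.04 log2 in GC-1, and rose by 1.01 ± 0.29 log2 (limma adjusted p = 0.0369). The other three had no overlap between the lines but did not pass, with differences of 0.85 (Rps18), 0.64 (Rps10) and 0.84 log2 (Fau). For Fau, which encodes a ubiquitin-like protein fused to a small-subunit protein, the levels were 8.92 and 9.37 log2 in GC-2, against 8.42 and 8.19 log2 in GC-1 (limma adjusted p = 0.0541). Rps27a, fused to ubiquitin, had a difference of 0.51 log2 (limma adjusted p = 0.191).

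**Figure D4:**
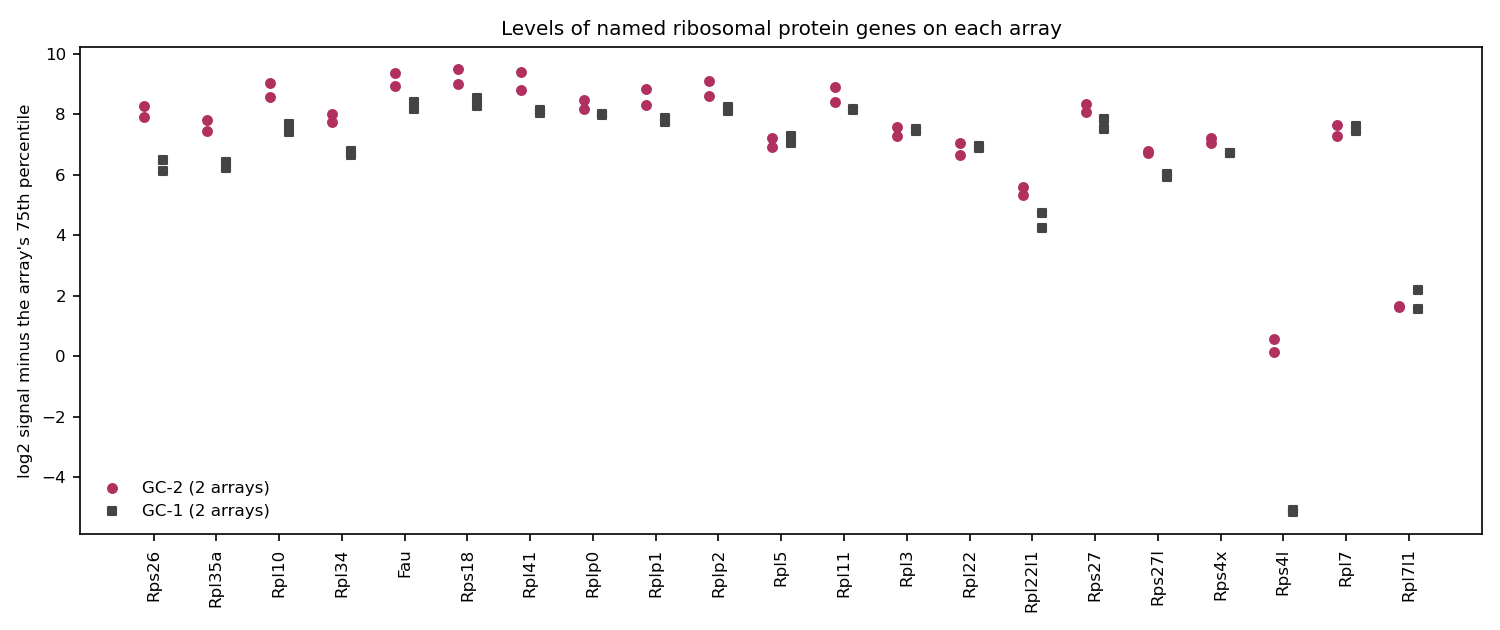
Levels of named ribosomal protein genes (log2 signal minus the array's 75th percentile, vertical axis) on each of the GC-2 arrays (red circles, left) and GC-1 arrays (grey squares, right). Rps26, Rpl35a, Rpl10 and Rpl34 separate the lines, Rpl5, Rpl3, Rpl22 and Rpl7 do not, and Rps4l lies far apart at 0.14 and 0.56 against -5.07 and -5.14.

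The stalk of the large subunit, which recruits the elongation factors, consists of Rplp0, Rplp1 and Rplp2. None passed the test. Rplp1 had 8.30 and 8.83 log2 in GC-2 and 7.86 and 7.73 log2 in GC-1 (difference 0.77 ± 0.28). Rplp2 had 8.62 and 9.10 log2 in GC-2 and 8.24 and 8.12 log2 in GC-1 (0.68 ± 0.27). Rplp0, often used as a reference transcript, had 8.16 and 8.49 log2 in GC-2 and 7.96 and 8.00 log2 in GC-1 (0.34 ± 0.25), and in all 3 both GC-2 arrays lay above both GC-1 arrays.

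Rpl5 and Rpl11, which bind 5S rRNA and, outside the ribosome, Mdm2, had differences of -0.10 ± 0.25 and 0.48 ± 0.27 log2, and neither passed. Rpl5 overlapped between the lines, with 6.91 and 7.21 log2 in GC-2 and 7.27 and 7.05 log2 in GC-1. The other common reference transcripts, Rpl13a, Rpl19, Rpl32, Rps18 and Rps29, ranged from 0.16 (Rpl19) to 0.85 log2 (Rps18), and none passed. The genes closest to no difference were Rpl18 (0.00 ± 0.24), Rpl37 (0.02 ± 0.30) and Rpl3 (-0.03 ± 0.24 log2). Rps13, at the subunit interface, had the lowest difference among the bright members, at -0.49 ± 0.23 log2, with levels of 6.72 and 6.93 in GC-2 and 7.33 and 7.30 in GC-1 (limma adjusted p = 0.144). Its arrays did not overlap, and it was named after its values were seen.

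The 5 tested paralogs ranged from -1.28 (Rpl3l) to 5.46 log2 (Rps4l), and the 9 canonical genes beside them from -0.06 (Rpl22) to 1.27 log2 (Rpl10). Rps4l, an autosomal relative of the X-linked Rps4x that RefSeq lists as a transcribed pseudogene, had 0.14 and 0.56 log2 in GC-2, against -5.07 and -5.14 log2 in GC-1. Its single probe (chr6:148304018-148304077, mm9) was well above background on all 4 arrays, with unscaled signals of 457 and 295 in GC-2 and about 20 (19.8 and 19.6) in GC-1. It rose by 5.46 ± 0.26 log2, or 43.9-fold (limma adjusted p = 0.000142), and was the 1 member that also rose with scaling to the spike-in probes. The GC-1 levels of Rps4l stood near the lowest signals well above background on those arrays (-6.38 and -6.04 log2), so that its fold is approximate. Even in GC-2 its probe stood far below that of Rps4x, which had 7.06 and 7.22 log2 in GC-2 and 6.73 and 6.73 log2 in GC-1 (difference 0.41 ± 0.23, limma adjusted p = 0.201), though levels of different probes are not on a common scale.

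Rpl22l1 had 5.59 and 5.33 log2 in GC-2 and 4.73 and 4.22 log2 in GC-1, and rose by 0.98 ± 0.28 log2 (limma adjusted p = 0.0383). Rpl22 itself overlapped between the lines, with 6.66 and 7.05 log2 in GC-2 and 6.93 and 6.90 log2 in GC-1 (difference -0.06 ± 0.25). Rps27l, a p53 target in human cells, had 6.71 and 6.79 log2 in GC-2 and 6.02 and 5.93 log2 in GC-1. It rose by 0.78 ± 0.23 log2 (limma adjusted p = 0.0403), beside 0.54 ± 0.26 log2 for Rps27. Whether a paralog and its namesake differed in response was not tested.

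Rpl7l1 had a difference of -0.23 ± 0.29 log2 and Rpl7 of -0.06 ± 0.25 log2, and both overlapped between the lines. Rpl3l, a form of striated muscle, was not well above background on either GC-2 array and stood near the detection limit on the GC-1 arrays (-5.41 and -5.55 log2, against -6.53 and -6.99 in GC-2). It fell by 1.28 log2 in the fit, and had 0.82 log2 with normexp background. No fold can be given, since its mean GC-1 level lay below the mean of the lowest measurable signals of the GC-2 arrays (-5.58 and -4.69 log2). The male germ line paralogs Rpl10l and Rpl39l were well above background on no array of either line. Of the X-linked members, Rpl10 and Rpl36a rose, by 1.27 and 1.14 log2. Rpl39 and Rps4x had differences of 0.84 and 0.41 log2 and did not pass as genes (limma adjusted p = 0.0516 and 0.201). By probe, however, all 5 Rpl39 probes were higher in GC-2 past the limma test, with adjusted p from 0.000427 to 0.0497.

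Where a gene had several probes, these often gave different sizes. Of 61 genes with at least 2 tested probes, 7 had all probes higher past the test, 31 had none past it and 23 were mixed, and no gene had probes past the test in opposite directions. Of all tested probes of the array, 24.1% were higher and 21.6% lower. The counts by gene were not taken for other genes with several probes, so they describe the members without marking them off. The median spread between a gene's highest and lowest probe was 0.31 log2. Rpl39 had the widest spread among genes with all probes measured on all 4 arrays. Its first probe, printed above, had 5.76 and 6.04 log2 in GC-2, against 2.27 and 2.32 log2 in GC-1, a difference of 3.60 ± 0.24 log2. The second probe differed by 1.79 log2 and the printed probe that overlaps it by 1.26 log2. The remaining pair, nearest to the 3′ end, differed by 0.91 and 0.84 log2, and the last and brightest of them represents the gene.

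In Rps18, too, the probe nearest to the transcript's start differed most, by 2.25 ± 0.28 log2 (6.005 and 6.04 log2 in GC-2, 3.51 and 4.05 log2 in GC-1), and the others by 0.41 and 0.85 log2. In Rpl26 the probe at the start of the transcript differed by 1.51 log2 and the brightest pair by 0.23 and 0.27 log2. The remaining Rpl26 probe (chr11:68720418-68720477, mm9) was above background on no GC-1 array, so that GC-2 was at least 12.5-fold higher. In Rps15a and Rpl13 the outlying probes pointed the other way. A dim Rps15a probe (chr7:125248322-125248381) was above background on no GC-2 array with GC-1 at least 2.07-fold higher, and a dim Rpl13 probe (chr8:125628690-125628749) was lower in GC-2 by -1.64 ± 0.31 log2, beside 0.61 log2 for the brightest probe of the gene.

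**Figure D5:**
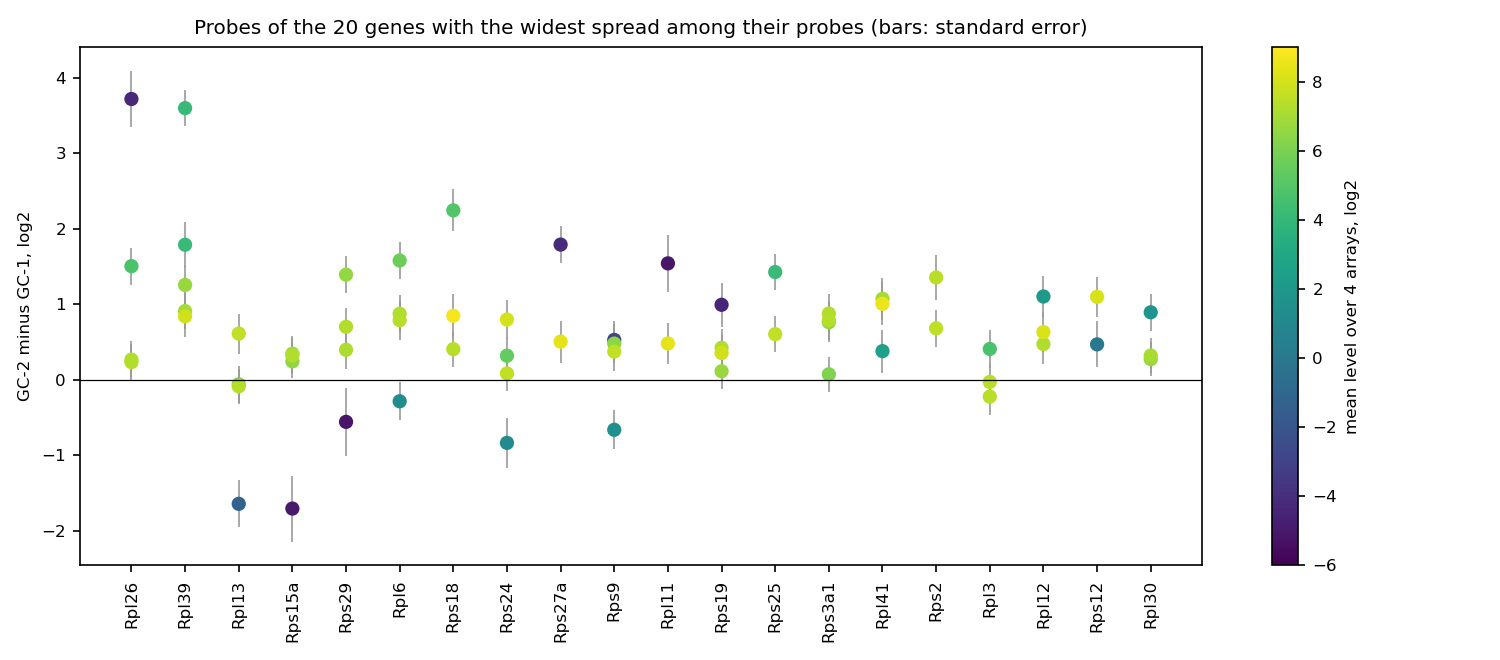
Differences between GC-2 and GC-1 (log2, vertical axis, with bars of 1 standard error) of the single probes of the 20 ribosomal protein genes with the widest spread, coloured by mean level over the 4 arrays (log2). In Rpl26, Rpl39, Rps18 and Rpl6 a dimmer probe lies above the brighter ones, and in Rpl13 and Rps15a a dim probe lies below.

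The higher difference at the upstream probe of Rpl39 and Rps18 was not general in the family. In 43 family transcripts with probes at several positions, the upstream probe had the higher difference in 22, with a median upstream-minus-downstream gap of 0.02 log2. Over 4919 such transcripts of the array it had it in 70.0%, with a median gap of 0.57 log2. The upstream probe was the dimmer one in 35 of the 43 (81.4%), and in 87.1% of the 4919.

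Ribosomal protein genes have many processed copies in the genome, and a probe may bind the RNA of a copy. Of the 184 probes, 49 (38 genes) shared at least 25 bases in a row with a probe of another name. In 66 such pairs of tested probes the 2 differences had the same sign in 63, with a median absolute gap of 0.06 log2, so that these pairs cannot be told apart as sources of signal. The scanner files place 7 of 181 probes, of Rpl13, Rpl36, Rps27 and Rps29, on another chromosome than the gene's, and Rps27 and Rps29 are represented by such a probe. Without the probes that share a run, 15 of the remaining 73 tested genes (20.5%) rose and 1 (1.37%) fell, with the same median of 0.61 log2. Of all genes tested in that way 18.1% rose and 25.5% fell.

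Genes related to the family were counted in the same way, and the gaps between groups were not tested. Of 22 translation factors and other terminal oligopyrimidine mRNAs, 1 (4.55%) rose and 2 (9.09%) fell, with a median difference of -0.11 log2, where 18.1% and 25.5% of all tested genes did. Eif3a, a scaffold of initiation factor eIF3, rose by 1.08 log2, while Eif4b, a helper of the cap-binding helicase, fell by 1.91 log2 and Eif2s3x, a subunit of the factor that carries the initiator tRNA, fell by 1.26 log2. Eif2s3x had, however, 0.26 log2 with the mean of its probes and 0.93 log2 in the authors' deposited table. Rack1, a protein of the small subunit not covered by the name rule, and Eef1a1, an elongation factor, had differences of 0.55 and 0.53 log2 and did not pass.

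Of 49 genes of ribosome assembly and rRNA synthesis, 4 (8.16%) rose and 7 (14.3%) fell, with a median of -0.03 log2. Rrp1b, Dkc1 and Rrp9, which act in nucleolar rRNA processing or modification, rose by 2.53, 2.08 and 2.07 log2. Taf1b, a subunit of an RNA polymerase I start factor, fell by 2.33 log2, Sbds, which acts in the release of the large subunit for translation, fell by 1.76 log2, and Nolc1, a nucleolar chaperone, fell by 1.48 log2. Of 78 mitochondrial ribosomal protein genes, whose products serve the separate ribosome of mitochondria, 14 (17.9%) rose and 7 (8.97%) fell, with a median of 0.06 log2, against the same 18.1% and 25.5% of all genes. Mrps12, Mrps18c and Mrps6 rose by 1.96, 1.37 and 1.33 log2, and Mrpl38, Mrpl45 and Mrpl43 fell by 1.63, 1.03 and 1.02 log2.

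Among 19 regulators of the translation or transcription of ribosomal protein mRNAs, 4 (21.1%) rose and 6 (31.6%) fell, near the 18.1% and 25.5% of all tested genes, with a median of -0.18 log2. Deptor, a binding partner and inhibitor of mTOR, had 2.03 and 1.60 log2 in GC-2, against -1.22 and -1.61 log2 in GC-1, and rose by 3.24 ± 0.29 log2 (limma adjusted p = 0.000861). Myc, a transcription factor that raises ribosome production, had 2.03 and 2.45 log2 in GC-2, against 3.33 and 3.92 log2 in GC-1, and fell by 1.38 ± 0.31 log2 (limma adjusted p = 0.0181). Both separated the lines without overlap, and Mycn was above background on the GC-1 arrays alone. Eif4ebp2, a repressor of cap-dependent initiation, and Rps6kb2, an S6 kinase, rose by 2.55 and 1.67 log2. Tsc1, an inhibitor upstream of mTOR, and Larp1 fell by 1.28 and 0.88 log2, while Mtor had a difference of 0.06 ± 0.25 log2. With the mean of its probes Tsc1 had 0.49 log2.

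Of 7 genes for general and TATA-less start factors, 1 (14.3%) rose and 4 (57.1%) fell, with a median of -0.93 log2. Of all tested genes 18.1% rose and 25.5% fell, and so short a list gives only coarse shares. Sp1 rose by 1.65 log2, while Gabpb1, a subunit of the GABP factor, Yy1 and Tbp, the TATA-binding protein, fell by 1.31, 1.30 and 1.23 log2.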

How the data were processed

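Total RNA of GC-2 and GC-1 cells was labelled with Cy3 after oligo-dT priming, per the labels' protocols, and hybridised to 4 arrays. Per the file headers, the arrays were read with Agilent Feature Extraction 11.5.1.1. Its processed intensity is the brightness of a spot after background subtraction and detrending, with no normalization between arrays. The authors' deposited table holds log2 values, 1 per gene name. For 25183 names with 1 probe these equalled the log2 processed intensity minus a constant per array, with an interquartile range of the gap of 0.0021 to 0.0026. Its column medians were -3.64 and -3.53 for GC-2 and -3.78 and -3.67 for GC-1. The rule for several probes of a gene was not found in the labels or headers.

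Log2 processed intensities were averaged per probe after removal of control spots and of 92 to 224 irregular spots per array, and the array's 75th percentile was subtracted. The lines were tested on all 4 arrays without a block, two-sided, by lmFit and eBayes of limma 3.58.1 (R 4.3.3), with Benjamini-Hochberg adjustment over 36693 probes and, for genes, over 17437, at a threshold of 0.05. Names came from the RefSeq table of GRCm38, and 146 member probes matched by accession and 38 by symbol. Probe positions are on mm9, as in the scanner files. A value given as at least N-fold is set against the dimmer line's arrays. On each of these the lowest signal well above background was taken, or the probe's own signal where that was higher. The number of arrays limits the precision.

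The members, gene lists and tests were chosen with earlier results of these data known. Named were the 6 largest rises past the test, the 5 brightest members (some genes that the rule or the test selects are not reported by name here), the members of the short lists (stalk, 5S, paralogs and their namesakes, ubiquitin fusions, reference transcripts), the genes with the widest probe spread or closest to 0, up to 3 rises and falls per related list, and a few fixed regulators. Rpl36a, Rps28 and other called members given as ranges, and the probes outside this rule, were added after their values were seen. On simulated data of 36693 probes limma called 70% of changes of 1 log2 and 95% of 2 log2, and 3.02% of calls fell on unchanged probes. The 8845 probes called higher and 7935 called lower in the data kept their measured differences there. A sample of the other probes was given the changes of set size. The share of calls on unchanged probes thus depends on the calls made in these data. The simulated errors were normal and independent between probes, with a spread that limma had fitted. Shifts that many probes of an array share, and the choice of scaling, were thus not covered. Alternatives were other scalings (array median, quantile, E1A spike-in probes), normexp background (offset 50), other filters, the mean of a gene's probes, the authors' table, the replicate number as a block and each array left out.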

Additional observations from a re-analysis of the deposited data

How the results depend on the processing

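The median difference of the ribosomal protein genes stayed above 0 under each alternative but the spike-in scaling, where it was -1.46 log2. It was 0.29 with array medians, 0.11 with quantile normalization, 0.41 with normexp background and 0.40 to 0.76 with each array left out. Array medians gave 9 genes that rose and 2 that fell (10.8% and 2.41%, against 13.0% and 33.5% of all genes). Quantile normalization gave 8 and 2 (9.64% and 2.41%, against 18.6% and 24.4%). Spike-in scaling gave 1 and 80 (1.2% and 96.4%, against 3.74% and 87.1%). Normexp gave 12 and 0 (14.5% and 0%, against 21.1% and 20.9%). Without a filter on dim probes there were 9 and 1 (10.6% and 1.18%, against 11.15% and 13.1%). Genes above background on all 4 arrays gave 29 and 0 (35.4% and 0%, against 20.2% and 25.5%). The mean of a gene's probes gave 29 and 1 (34.9% and 1.2%, against 22.7% and 22.4%). In the authors' table there were 20 and 1 (24.1% and 1.2%, against 17.7% and 19.6%). Probes that rose and fell numbered 27 and 6 with array medians, 33 and 5 with quantile normalization, 3 and 164 with spike-in scaling, 37 and 1 with normexp, 27 and 3 without the filter, 64 and 1 above background on all arrays, and 17 to 40 and 1 to 2 with an array left out. The arrays whose removal cut the genes that rose from 18 by over 1.5 times were GC-2 replicate 1 (11), GC-2 replicate 2 (3), GC-1 replicate 1 (2) and GC-1 replicate 2 (3). A line left with 1 array is assumed to vary like the other. The replicate numbers only name the arrays (their deviations correlated at 0.124). With the replicate block 16 genes rose and 1 fell (19.3% and 1.2%, against 18.4% and 25.6% of all genes).

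Medians of translation factors, assembly genes and mitochondrial ribosomal proteins were -0.42, -0.34 and -0.25 with array medians, -2.175, -2.09 and -2.003 with spike-in scaling, and -0.29, -0.11 and -0.069 with normexp. Assembly genes had 0.17 and mitochondrial ones 0.33 with quantile normalization, and assembly genes 0.15 with the mean of probes, 0.11 in the authors' table and -0.19 to 0.018 with an array left out. With an array left out, translation factors had -0.22 to -0.02 and mitochondrial ribosomal proteins 0.05 to 0.09.

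Differences that changed sign with array medians were those of Rpl26 (-0.049), Rpl19 (-0.15), Rpl18 (-0.31), Rpl37 (-0.29) and Mtor (-0.25). With quantile normalization they were Rps10 (-0.12), Rplp0 (-0.30), Rplp2 (-0.020), Rpl11 (-0.20), Rpl26 (-0.024), Rps27 (-0.027), Rps27a (-0.17), Rpl19 (-0.37), Rpl18 (-0.23), Rpl37 (-0.062) and Rack1 (-0.10). With normexp they were Rpl3l (0.82), Rpl19 (-0.051) and Rpl18 (-0.14). With the mean of a gene's probes they were Rpl3 (0.052), Rps15a (-0.20), Rpl13 (-0.29), Eif2s3x (0.26), Tsc1 (0.49), Mtor (-0.45) and Eef1a1 (-0.26). In the authors' deposited table they were Rpl11 (-2.63), Rpl26 (-0.43), Rpl37 (-0.022), Rpl13 (-0.20), Eif2s3x (0.93) and Mtor (-0.49), and Rpl11 and Rps29 were the 2 of 83 members there with replicates over 2 log2 apart. Leaving out an array gave Rpl5 -0.25 to 0.057, Rpl7l1 -0.54 to 0.081, Rpl3 -0.18 to 0.12, Rpl18 -0.11 to 0.12, Mtor -0.14 to 0.26, Rpl7 -0.23 to 0.11, Rpl37 -0.27 to 0.32 and Rpl22 -0.25 to 0.13. None of these had passed the test as reported except Rpl3l, Eif2s3x and Tsc1.

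Spike-in scaling subtracts the same amount from all genes (the 8 of 10 E1A probes that were measured moved by 1.36 to 2.91). It gave -0.28 for Rps26, -0.76 for Rpl35a, -0.80 for Rpl10, -0.82 for Rpl17, -0.90 for Rpl34, -1.22 for Rps18, -1.43 for Rps10, -1.23 for Fau, -1.06 for Rpl41, -1.72 for Rplp0, -1.30 for Rplp1, -1.39 for Rplp2, -1.59 for Rpl11, -1.09 for Rpl22l1, -1.29 for Rps27l, -1.80 for Rpl26, -1.23 for Rpl39, -1.66 for Rps4x, -1.53 for Rps27, -1.75 for Rps15a, -1.56 for Rps27a, -1.68 for Rpl13a, -1.90 for Rpl19, -1.32 for Rpl32, -1.365 for Rps29, -2.065 for Rpl18, -2.04 for Rpl37 and -1.46 for Rpl13. Beyond the family it gave -0.99 for Eif3a, -0.40 for Rps6kb2, -0.42 for Sp1, -0.10 for Mrps12, -0.70 for Mrps18c, -0.73 for Mrps6, -2.005 for Mtor, -1.51 for Rack1 and -1.54 for Eef1a1. For the other alternatives the cause of a change was not tested.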
